A study of Mus musculus with 48 samples.

Results

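The genes examined were the SREBP transcription factors and the proteins that control them: Srebf1 and Srebf2, which encode the factors, Scap, Insig1 and Insig2, which hold or release them, and Stard4, a sterol carrier. They were chosen by name as members of 1 pathway, with earlier results of these data known. Each of the 6 genes had 1 probe set that carries a single gene symbol, and all 6 passed the filter on low values that left 13542 genes to test. A probe set is the group of array oligonucleotides read as 1 value, so the promoter variants of Srebf1 and the transcripts of Insig2 were not separated.

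Sterol regulatory element-binding proteins (SREBPs) are made as membrane proteins of the endoplasmic reticulum, where they are bound to the escort protein SCAP. When membrane cholesterol is low, SCAP carries them to the Golgi, proteases free their DNA-binding part, and genes of lipid synthesis are switched on. When sterols are plentiful, the INSIG proteins hold SCAP in place. In liver, the product of Srebf2 acts mainly on cholesterol synthesis and uptake, and the main liver product of Srebf1 on fatty acid synthesis. Srebf2 and Insig1 are themselves known targets of SREBPs, so that the pathway feeds back on its own parts.

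The study measured RNA from the median liver lobe of F1 mice, male or female, at 3 weeks of age. Their sires had been fed control or low protein chow between 3 and 12 weeks of age. The offspring were labelled wild-type, ATF7+/- or ATF7+/+. Atf7 encodes a stress-responsive transcription factor, and ATF7+/- marks animals with 1 intact copy. What sets ATF7+/+ apart from wild-type is not stated in the labels, which also give no strain and no sex for each animal. The 6 groups of 8 arrays are named WT_CD and WT_LPD, ATF7+/-_CD and ATF7+/-_LPD, and ATF7+/+_CD and ATF7+/+_LPD, where CD stands for a control-diet sire and LPD for a low-protein sire. The offspring themselves had no diet treatment in the labels.

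Values are log2 expression from Affymetrix arrays, and a difference of 1 is a 2-fold change. The hepatocyte genes Alb, Apoa1 and Ttr had mean log2 levels of 13.51, 13.37 and 13.21, high levels for the labelled tissue. Replicates 4 and 5 of WT_CD, and replicates 7 and 8 of ATF7+/+_CD, differed from each other far less than other pairs did, in the genes that vary most between animals, and each pair was averaged and counted as 1 sample. This left 46 samples, with n = 7 in WT_CD and ATF7+/+_CD and n = 8 in each of the other groups. Probe sets without a listed gene parted the arrays into a set A of 18 and a set B of 30, a division the labels do not mention. Each of the 6 groups put 3 of its arrays in set A. The level of Y-linked genes was high on 32 arrays, 5 or 6 in each group, and low on 16. Nothing states that the animals of a group came from separate litters or sires, so the p-values measure the spread between these samples. In whole liver, fewer cells of a type and less RNA per cell cannot be told apart.

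The upstream sequences of Srebf2 and Insig1 are shown because these genes are known SREBP targets, each had a single annotated start in the table used, and both rose in the comparison that follows. Both are from RefSeq on GRCm38.p6, on the plus strand, and end at the base before the annotated start. Srebf2 is at chr15:82147269-82205379 and its 250 upstream bases at chr15:82147019-82147268. Insig1 is at chr5:28071412-28078662 and its 250 upstream bases at chr5:28071162-28071411. Capitals mark matches, on either strand, to the core of the sterol element first known from the LDL receptor gene (TCACNCCA), the NF-Y box (CCAAT), the GC box bound by Sp1 (GGGCGG), the E-box (CACGTG) and the TGACGT core of the cyclic AMP response element, the kind of site that ATF proteins bind.
Srebf2: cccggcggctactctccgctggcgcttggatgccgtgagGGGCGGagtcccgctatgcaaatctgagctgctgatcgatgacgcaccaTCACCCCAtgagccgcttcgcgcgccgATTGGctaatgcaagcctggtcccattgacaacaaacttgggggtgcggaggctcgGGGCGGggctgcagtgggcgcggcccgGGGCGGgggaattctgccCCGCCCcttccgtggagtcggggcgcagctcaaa
Insig1: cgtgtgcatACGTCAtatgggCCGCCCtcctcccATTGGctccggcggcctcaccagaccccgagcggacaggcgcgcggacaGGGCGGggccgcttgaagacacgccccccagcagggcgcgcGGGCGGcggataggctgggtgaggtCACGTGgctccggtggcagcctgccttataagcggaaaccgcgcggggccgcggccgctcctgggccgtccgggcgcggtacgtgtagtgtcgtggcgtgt

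The Srebf2 sequence held 1 match to the sterol element core, TCACCCCA, at 162 to 155 bases before the start, with an NF-Y box (ATTGG on this strand) 135 to 131 bases before it and 4 GC boxes. The Insig1 sequence held no match to the sterol element core as written, 1 NF-Y box, 3 GC boxes, 1 E-box and 1 cyclic AMP element core (ACGTCA on this strand). Among 32851 promoter windows of the same length, 3.7% held the sterol element core, 33.8% the NF-Y box, 32.7% the GC box, 6.0% the E-box and 6.5% the cyclic AMP element core. The annotated starts of Srebf1 (3 windows), Scap (2 windows) and Insig2 (3 windows) had 0 matches to the sterol element core. The motifs were chosen with these windows in view, and a match is a string of letters and not a shown binding site.

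In wild-type offspring, 4 of the 6 genes were higher when the sire had eaten the low protein diet: Srebf2 rose 1.41-fold, Scap 1.37-fold, Insig1 1.79-fold and Stard4 1.55-fold. Of all 13542 genes tested, 3.6% passed in this comparison, 2.78% higher (377 genes) and 0.812% lower (110 genes). Insig2 and Srebf1 did not pass. The median log2 difference of the 6 genes was 0.47, against 0.004 over all genes tested. The tests were moderated two-sided tests of limma, with Benjamini-Hochberg adjustment over all genes and a threshold of 0.05. For none of the 6 genes were the wild-type groups free of overlap, a separation that 0.561% of genes showed.

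**Figure D1:**
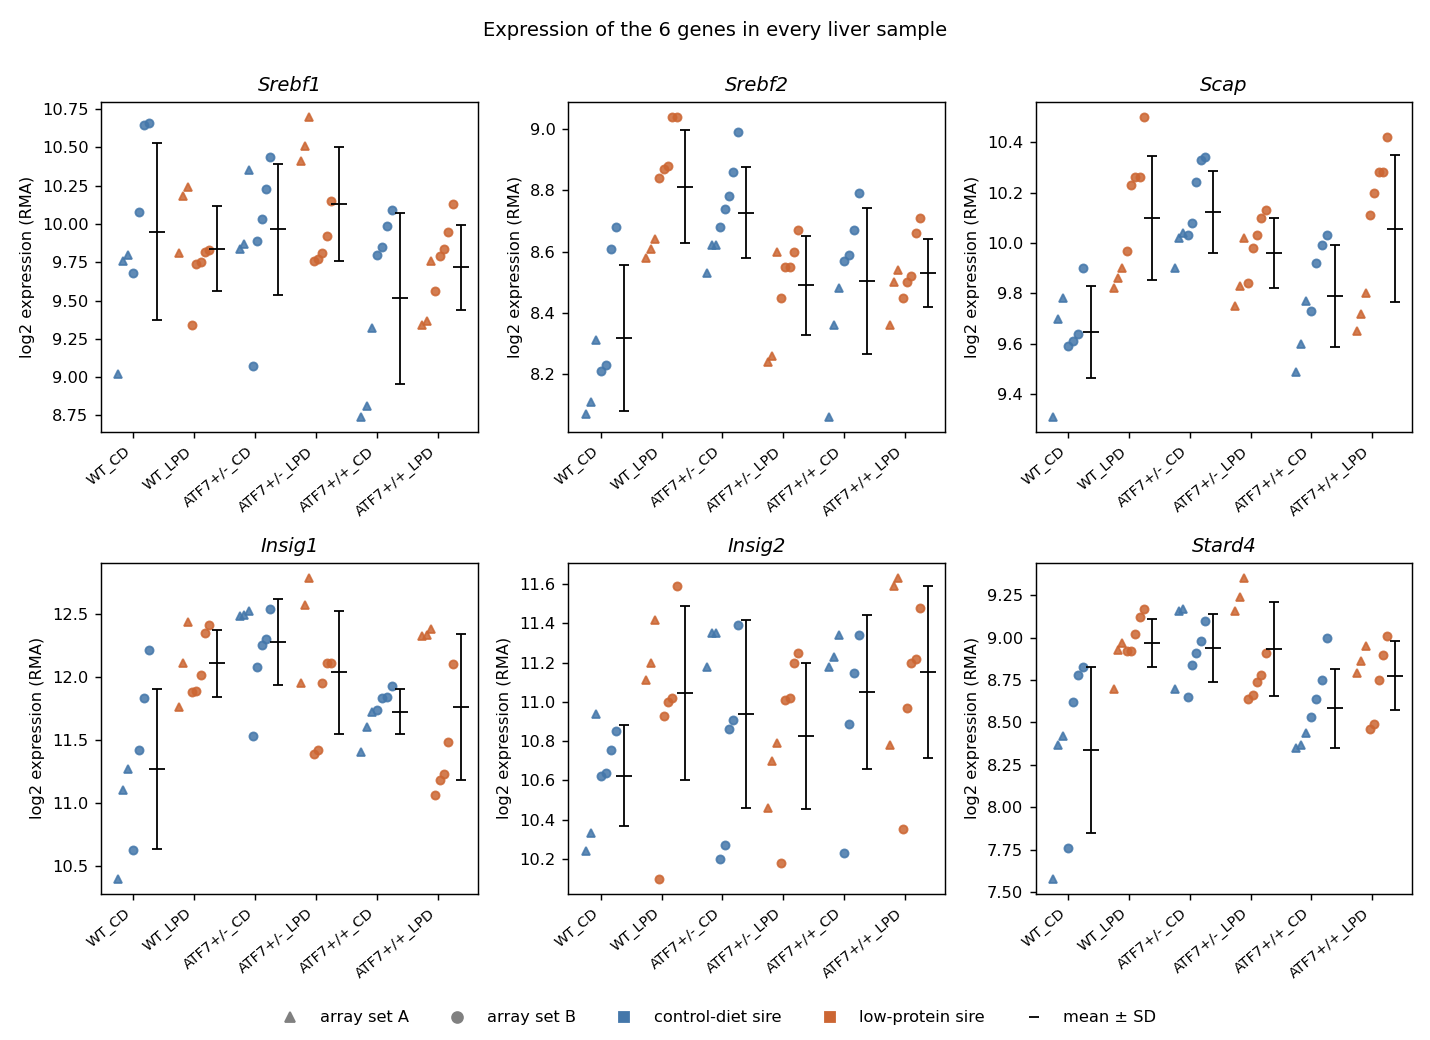
Log2 expression (RMA, vertical axis) of each gene in every sample of the 6 groups (horizontal axis), with array set A as triangles, array set B as circles, control-diet sires in blue, low-protein sires in orange, and the mean ± SD as a bar at each group. WT_CD has the lowest mean of the 6 groups for Srebf2, Scap, Insig1, Insig2 and Stard4, and ATF7+/+_CD for Srebf1.

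Of the factors, Srebf2 ran from 8.07 through a median of 8.23 to 8.68 in WT_CD, and from 8.58 through 8.86 to 9.04 in WT_LPD. In 5 of 8 WT_LPD samples the level was above every WT_CD sample, and 5 of 7 WT_CD samples were below every WT_LPD sample. The log2 difference was 0.50 ± 0.10 (SE), with a 95% interval from 0.30 to 0.69 and a limma adjusted p of 0.00111. Srebf1 ran from 9.02 through 9.80 to 10.66 in WT_CD and from 9.34 through 9.82 to 10.24 in WT_LPD. The WT_LPD values lay inside the range of WT_CD. Its log2 difference was -0.11 ± 0.21 (95% interval -0.54 to 0.32, adjusted p = 0.872), an interval that admits a fall or a rise of moderate size. The sign of this difference rested on single samples: without WT_CD replicate 1 it was 0.008, and without replicate 4 it was 0.005.

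Scap, the escort and sterol sensor, ran from 9.31 through 9.64 to 9.90 in WT_CD and from 9.82 through 10.10 to 10.50 in WT_LPD. Of the 7 WT_CD samples, 6 were below every WT_LPD sample. The difference was 0.45 ± 0.11 (95% interval 0.24 to 0.67, limma adjusted p = 0.0103). With only the 2 wild-type groups in the fit, the same difference had an adjusted p of 0.0595.

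Insig1, the anchor that is itself an SREBP target, ran from 10.4 through 11.27 to 12.21 in WT_CD, the widest range of the 6 genes in that group, and from 11.76 through 12.06 to 12.43 in WT_LPD. Here 5 of 7 WT_CD samples were below every WT_LPD sample, while the highest WT_CD sample was above most WT_LPD samples. The difference was 0.84 ± 0.22 (95% interval 0.39 to 1.28, adjusted p = 0.022). The call depended on 2 low WT_CD samples: without replicate 2 (10.63) the difference was 0.73 with an adjusted p of 0.0518, and without replicate 8 (10.4) it was 0.69 with an adjusted p of 0.0993. It was also lost with array weights (0.70, adjusted p = 0.0959) and with only the wild-type groups in the fit (adjusted p = 0.0753).

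Insig2, the second anchor, which in liver is known to be lowered by insulin, ran from 10.24 through 10.64 to 10.94 in WT_CD and from 10.1 through 11.07 to 11.59 in WT_LPD. Most WT_LPD samples, 6 of 8, were above every WT_CD sample, but replicate 4 of WT_LPD was the lowest of all 15. The difference was 0.42 ± 0.20 (95% interval 0.01 to 0.83), with an unadjusted p of 0.0438 and an adjusted p of 0.295 in limma.

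Stard4, which carries sterol between membranes and is known to be induced when sterols are low, ran from 7.58 through 8.42 to 8.83 in WT_CD and from 8.70 through 8.95 to 9.17 in WT_LPD. All but 1 of the WT_LPD samples, 7 of 8, were above every WT_CD sample. The difference was 0.63 ± 0.14 (95% interval 0.35 to 0.91, adjusted p = 0.00437). With only the wild-type groups in the fit the adjusted p was 0.0753. The low WT_CD samples were the same as for Insig1: replicate 8 at 7.58 and replicate 2 at 7.76. Without any 1 of the 15 wild-type samples the Stard4 call stayed, with a limma adjusted p of at most 0.0283.

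In ATF7+/- offspring none of the 6 genes passed between sire diets by limma (0 of 6, with 0% of all genes past the threshold), and 1 of the 6, Srebf2, had an unadjusted p under 0.05. At that unadjusted level stood 178 of all genes. Srebf2 ran from 8.53 through 8.71 to 8.99 in ATF7+/-_CD and from 8.24 through 8.55 to 8.67 in ATF7+/-_LPD, so that its mean was lower with the low-protein sire (-0.24 ± 0.09, unadjusted p = 0.0128, adjusted p = 1). The log2 differences of the other genes were -0.16 for Scap (95% interval -0.37 to 0.05), -0.24 for Insig1 (-0.67 to 0.19), -0.11 for Insig2 (-0.51 to 0.28), -0.004 for Stard4 (-0.27 to 0.27) and 0.16 for Srebf1 (-0.25 to 0.58). Median levels of Insig1 were 12.39 and 12.03 with control-diet and low-protein sires, and those of Stard4 were 8.95 and 8.85. The Stard4 difference had no stable sign when single samples were left out (-0.063 to 0.038).

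In ATF7+/+ offspring 0 of the 6 genes passed by limma, against 0.00738% of all genes (1 gene). Scap alone had an unadjusted p under 0.05, as did 621 of all genes. It ran from 9.49 through 9.77 to 10.03 in ATF7+/+_CD and from 9.65 through 10.16 to 10.42 in ATF7+/+_LPD, with 5 of 8 ATF7+/+_LPD samples above every ATF7+/+_CD sample (0.27 ± 0.11, unadjusted p = 0.0173, adjusted p = 0.945). The differences were 0.20 for Srebf1 (95% interval -0.22 to 0.63), 0.03 for Srebf2 (-0.16 to 0.22), 0.04 for Insig1 (-0.41 to 0.48), 0.10 for Insig2 (-0.31 to 0.51) and 0.19 for Stard4 (-0.09 to 0.47). Insig1 ran from 11.4 through 11.74 to 11.93 with the control-diet sire and from 11.06 through 11.79 to 12.38 with the low-protein sire, a range that took in the whole of the first. Its difference took either sign when single samples were left out, from -0.051 to 0.137. Without replicate 5 of ATF7+/+_CD the difference of Insig2 was -0.036.

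**Figure D2:**
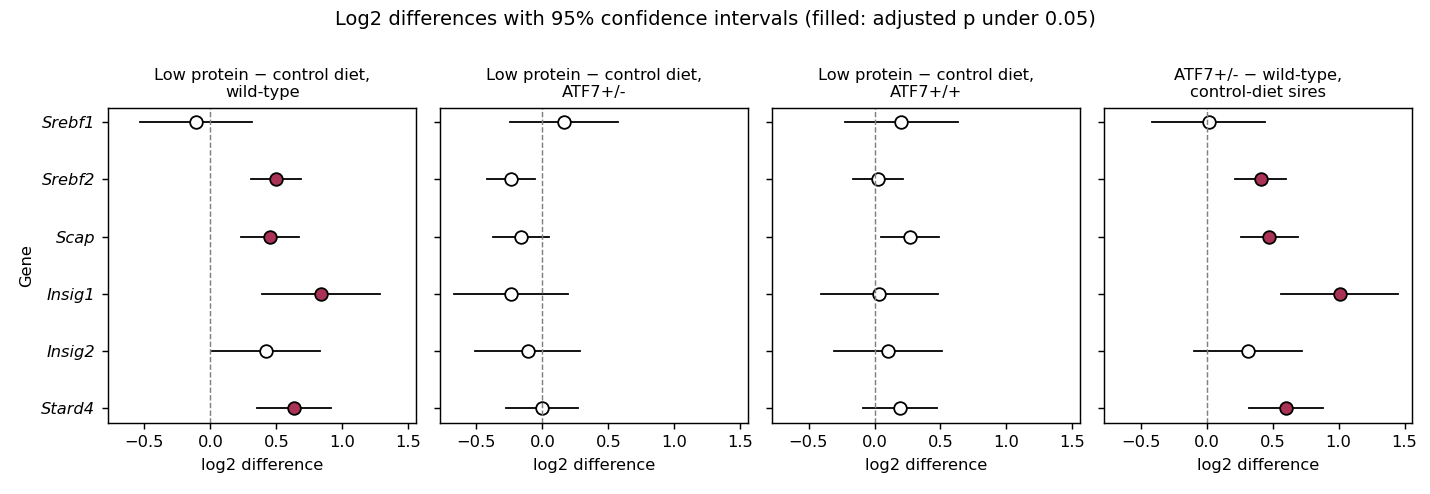
Log2 difference (horizontal axis) of each gene (vertical axis) in 4 comparisons, as points with 95% confidence intervals from the limma fit; filled points have an adjusted p under 0.05. The 4 genes that pass in the wild-type diet comparison are the 4 that pass in the comparison of ATF7+/- with wild-type offspring of control-diet sires, and both comparisons use the WT_CD samples.

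Whether the diet difference itself differed between genotype labels was tested by the interaction. For wild-type against ATF7+/-, 2 of the 6 genes passed, against 0.635% of all genes (86 genes), 0.569% with the larger value in wild-type and 0.0665% with the smaller. The diet difference of Srebf2 was larger in wild-type than in ATF7+/- offspring by 0.73 ± 0.13 (adjusted p = 0.00105), with 0.50 in the first and -0.24 in the second. Srebf2 passed under each alternative that was run, other than leaving samples out, and without any 1 of the 31 samples. Scap differed by 0.61 ± 0.15 (adjusted p = 0.0356). This second call was lost without any 1 of 14 samples, with an adjusted p of at most 0.0883: WT_CD replicates 1, 4 and 8, WT_LPD replicates 3, 4, 5 and 8, ATF7+/-_CD replicates 3, 5 and 7, and ATF7+/-_LPD replicates 1, 3, 6 and 8. It was also lost after median centring of each array (adjusted p = 0.121).

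The interaction of Insig1 was the largest of the 6 in size, 1.08 ± 0.31, and missed the threshold (adjusted p = 0.102). A block for the array set gave 1.09 with a limma adjusted p of 0.0421, and 299 of all genes passed, against 86 without it. Without WT_CD replicate 4 the interaction of Insig1 was 1.24 with an adjusted p of 0.0308. Stard4 differed by 0.64 ± 0.19 (adjusted p = 0.127). The replicate number within each genotype label as a block gave Stard4 0.64 with a limma adjusted p of 0.0474. With that replicate block 119 of all genes passed. Insig2 (0.53 ± 0.28, adjusted p = 0.582) and Srebf1 (-0.27 ± 0.29, adjusted p = 0.901) did not pass. An interaction that missed the threshold does not show equal diet differences in the labels.

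For wild-type against ATF7+/+, 0 of the 6 genes passed in limma, against 0.0222% of all genes (3 genes), while 3 of the 6 and 956 of all genes had an unadjusted p under 0.05. The interaction of Srebf2 was 0.47 ± 0.13 with an adjusted p of 0.203. A block for the array set gave Srebf2 0.47 with a limma adjusted p of 0.0184, and 51 of all genes passed with it. The interaction of Insig1 was 0.80 ± 0.31 (adjusted p = 0.489) and that of Stard4 was 0.44 ± 0.20 (adjusted p = 0.627). For ATF7+/+ against ATF7+/-, 0 of the 6 genes and 0% of all genes passed, with 1 of the 6 genes and 380 of all genes at an unadjusted p under 0.05. The 1 gene was Scap, at 0.43 ± 0.15 (unadjusted p = 0.00644, adjusted p = 1).

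Among offspring of control-diet sires, the same 4 genes were higher in ATF7+/- than in wild-type livers, against 1.65% of all genes past the threshold in this comparison, 1.17% higher (158 genes) and 0.487% lower. It shares the WT_CD samples with the wild-type diet comparison, so the values stand side by side and neither supports the other. Srebf2 was higher by 0.41 ± 0.10 (adjusted p = 0.0129), Scap by 0.48 ± 0.11 (adjusted p = 0.0112), Insig1 by 1.01 ± 0.22, a 2.01-fold difference (adjusted p = 0.00832), and Stard4 by 0.60 ± 0.14 (adjusted p = 0.0127). Insig2 (0.31 ± 0.20, adjusted p = 0.554) and Srebf1 (0.02 ± 0.21, adjusted p = 0.988) did not pass. Against these stood wild-type diet differences of 0.50, 0.45, 0.84 and 0.63 for the first 4 genes. The call of Stard4 was lost without WT_CD replicate 8 (0.47, adjusted p = 0.0599). With only these 2 groups in the fit, Scap alone kept its call.

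Among offspring of low-protein sires, 0 of the 6 genes and 0% of all genes passed between ATF7+/- and wild-type in limma. Srebf2 was the 1 gene of the 6 with an unadjusted p under 0.05, as were 377 of all genes: its mean was lower in ATF7+/- by 0.32 ± 0.09 (unadjusted p = 0.00101, adjusted p = 0.91). The other differences were 0.29 for Srebf1, -0.14 for Scap, -0.07 for Insig1, -0.22 for Insig2 and -0.03 for Stard4, each with an adjusted p of 1. Between ATF7+/+ and wild-type offspring of control-diet sires, 0 of the 6 genes passed, against 0.347% of all genes (47 genes, 0.288% higher and 0.0591% lower), with 1 of the 6 genes and 1434 of all genes at an unadjusted p under 0.05. The values were -0.43 for Srebf1, 0.19 for Srebf2, 0.14 for Scap, 0.46 for Insig1, 0.43 for Insig2 and 0.25 for Stard4. In the remaining 3 comparisons, of ATF7+/- with ATF7+/+ under each sire diet and of ATF7+/+ with wild-type under the low protein diet, 0 of the 6 genes and 0% of all genes passed, with 5, 0 and 1 of the 6 genes at an unadjusted p under 0.05, and 914, 908 and 1130 of all genes. The 5 genes, all with a higher mean in ATF7+/- than in ATF7+/+ offspring of control-diet sires, were Srebf1 (0.45), Srebf2 (0.23), Scap (0.33), Insig1 (0.55) and Stard4 (0.36). The 1 gene was Srebf2, with a mean lower in ATF7+/+ than in wild-type offspring of low-protein sires (-0.28 ± 0.09, unadjusted p = 0.0035, adjusted p = 0.356). These counts depended on the array set: set A alone called 4 of the 6 genes and 1262 of all genes for ATF7+/- against ATF7+/+ with control-diet sires, 2 and 1218 with low-protein sires, and 0 and 1740 for ATF7+/+ against wild-type. The 4 genes in set A were Srebf1 (1.06, adjusted p = 0.00475), Scap (0.37), Insig1 (0.92) and Stard4 (0.62), and the 2 were Srebf1 (1.05, adjusted p = 0.00559) and Insig2 (-0.68). Set B alone called 0 of the 6 genes in each. For ATF7+/- against ATF7+/+ it called 2 of all genes with control-diet and 0 with low-protein sires. Srebf1 stood at -0.001 and 0.028 there.

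In the order of group means, Srebf2 was highest in WT_LPD (8.81 ± 0.18, SD, n = 8), followed by ATF7+/-_CD (8.73), ATF7+/+_LPD (8.53), ATF7+/+_CD (8.50), ATF7+/-_LPD (8.49) and WT_CD (8.32 ± 0.24, n = 7). Of the neighbours in that order, only ATF7+/-_CD and ATF7+/+_LPD lay further apart than the SD within groups, 0.18. For Insig1 the order was ATF7+/-_CD (12.27 ± 0.34), WT_LPD (12.10), ATF7+/-_LPD (12.04), ATF7+/+_LPD (11.76), ATF7+/+_CD (11.72) and WT_CD (11.27 ± 0.63). Only the last step, between ATF7+/+_CD and WT_CD, was wider than its within-group SD of 0.44. Scap, Insig2, Stard4 and Srebf1 had no neighbouring means further apart than 1 SD within groups. Stard4 means ran from 8.97 in WT_LPD to 8.34 in WT_CD, Scap from 10.12 in ATF7+/-_CD to 9.65 in WT_CD, and Insig2 from 11.15 in ATF7+/+_LPD to 10.63 in WT_CD. Srebf1 had another order, from 10.13 in ATF7+/-_LPD to 9.51 in ATF7+/+_CD.

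The genes also differed in how much samples of 1 group varied. The SD was taken around group means, so it also holds any difference between the array sets. Mean Srebf1 in sets A and B was 8.96 and 9.93 in ATF7+/+_CD, and 10.54 and 9.88 in ATF7+/-_LPD. The SD within groups was 0.42 for Srebf1, 0.44 for Insig1 and 0.41 for Insig2, larger than for 93.3%, 94.1% and 92.3% of genes tested. It was 0.28 for Stard4, 0.21 for Scap and 0.18 for Srebf2, larger than for 76.6%, 57.1% and 43.1% of genes tested. The median gene stood at 0.20. The intervals of the first 3 genes are correspondingly wide.

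**Figure D3:**
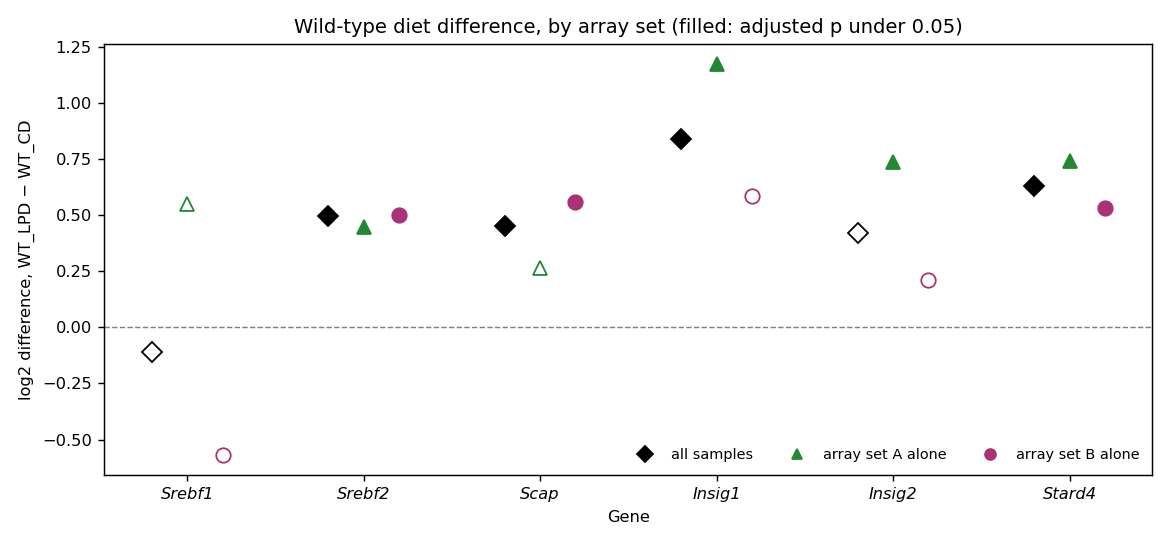
Log2 difference between WT_LPD and WT_CD (vertical axis) of each gene (horizontal axis) from all samples, from array set A alone and from array set B alone; filled symbols have an adjusted p under 0.05. Srebf2 and Stard4 pass in each set, and the values of Srebf1 lie on opposite sides of 0.

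Taken within each array set, the wild-type diet difference of Srebf2 stood at 0.45 (set A) and 0.50 (set B) (adjusted p = 0.0136 and 0.00139), and that of Stard4 at 0.74 and 0.53 (adjusted p = 0.00763 and 0.0446). Scap passed in set B (0.56, adjusted p = 0.000942) and not in set A (0.26, adjusted p = 0.12). Insig1 passed in set A (1.18, adjusted p = 0.00161) and not in set B (0.58, adjusted p = 0.168). Insig2 passed in set A (0.74, adjusted p = 0.016) and had 0.21 in set B (adjusted p = 0.722). Srebf1 was 0.55 in set A (adjusted p = 0.0755) and -0.57 in set B (adjusted p = 0.098). In set A its mean was 9.53 in WT_CD and 10.08 in WT_LPD, and in set B 10.27 and 9.70. Of all genes tested, set A alone called 2118 in this comparison and set B alone 639. Whether the sets differed from each other was not tested. A block for the array set left all 4 calls in place: 0.48 for Srebf2, 0.44 for Scap, 0.85 for Insig1 and 0.63 for Stard4, with adjusted p from 8.06e-06 to 0.00849 in limma. With that block 1254 of all genes passed.

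The interaction of Insig2 between wild-type and ATF7+/- showed the same division. In set A the diet difference was 0.74 in wild-type and -0.64 in ATF7+/- offspring, an interaction of 1.38 (adjusted p = 0.0118). In set B the interaction was 0.006 (adjusted p = 0.997). Set A alone called 280 of all genes in this interaction, and set B alone 181. For Srebf2 set A gave 0.67 and set B gave 0.75 (adjusted p = 0.0379 and 0.00145).

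The machinery around these genes was read from lists chosen with earlier results of these data known. Of the genes that SREBPs act on in cholesterol synthesis and uptake, 17 of 22 listed were tested. Of these, 17 of 17 passed as higher in WT_LPD than in WT_CD, against 2.78% of all genes, with a median log2 difference of 1.34. By smallest p these were Sqle, which oxidizes squalene (2.21), Dhcr7, which reduces the last intermediate to cholesterol (1.34), Pmvk, a kinase of the mevalonate steps (1.33), and Nsdhl, which removes sterol methyl groups (1.88). Of 15 fatty acid synthesis genes tested, 13 were higher, with a median of 0.98, among them the acetyl-CoA synthetase Acss2 (1.91), the acetyl-CoA carboxylase Acacb (1.83), the elongase Elovl5 (0.90) and the desaturase Scd1 (0.37). Among offspring of control-diet sires, 17 of the 17 and 8 of the 15 were higher in ATF7+/- than in wild-type, against 1.17% of all genes. In ATF7+/+ against wild-type 11 of the 17 and 4 of the 15 were higher, against 0.288% of all genes. All of these comparisons share the WT_CD samples. In the ATF7+/- and ATF7+/+ diet comparisons 0 genes of either list passed in limma. The unadjusted p was under 0.05 for 4 and 2 of the 17 and for 0 and 6 of the 15. The same held for 178 and 621 of all 13542 genes. In ATF7+/- offspring 0 of the 17 and 5 of the 15 had a higher mean with the low-protein sire (medians -0.27 and -0.02). In ATF7+/+ offspring 17 of the 17 and 15 of the 15 did (medians 0.20 and 0.45).

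The other parts of the machinery had 0 genes past the threshold in the wild-type diet comparison by limma. Of all 13542 genes, 2153 had an unadjusted p under 0.05 in it, and the unadjusted counts of these lists are to be read against that share. Of the 13 genes tested that carry or cleave SREBPs, which include the proteases and the coat of the transport vesicles, 0 passed and 3 had an unadjusted p under 0.05 (median log2 difference -0.04). The gene with the smallest p there was Sar1b, a small GTPase of the coat (0.47, adjusted p = 0.085). Of 12 genes tested that act with INSIGs in degrading HMG-CoA reductase, 0 passed and 2 had an unadjusted p under 0.05, Ufd1 having the smallest (-0.16, adjusted p = 0.252). Of 17 nuclear partners and regulators of SREBPs, 0 passed and 4 had an unadjusted p under 0.05, with the coactivator Ep300 lowest in p (-0.16). Of 12 other sterol carriers and transporters, 0 passed and 0 had an unadjusted p under 0.05, Gramd1b being nearest (-0.15). Of 6 genes that follow insulin and feeding, 0 passed and 1, the glucose-releasing phosphatase G6pc, had an unadjusted p under 0.05 (0.52, adjusted p = 0.106).

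Markers of other cells moved in the same comparison, in which 2.78% of all genes passed as higher. Of 6 stellate cell and fibroblast markers 2 were higher, Lrat (0.53) and Reln (0.42), and the mean log2 level of the list ran from 8.26 to 8.78 in WT_CD and from 8.63 to 9.02 in WT_LPD. Of 5 endothelial markers Cdh5 was higher (0.34), with list means from 8.98 to 9.74 and from 9.41 to 9.69. Of the 2 erythroid markers tested Alas2 was higher (0.84), with list means from 6.62 to 8.85 and from 7.42 to 8.51. None passed among 5 hepatocyte, 5 Kupffer cell, 3 cholangiocyte and 3 white blood cell markers by limma, with 0 of these 16 at an unadjusted p under 0.05. In ATF7+/- against wild-type offspring of control-diet sires, 1 of 5 endothelial markers was higher, beside 1.17% of all genes. There 0 of 6 stellate and 0 of 2 erythroid markers passed by limma. The unadjusted p was under 0.05 for 3 of the 6 and 2 of the 2, and for 1727 of all 13542 genes. List means in ATF7+/-_CD ran from 9.29 to 9.71 for endothelial, 8.54 to 8.97 for stellate and 7.29 to 9.02 for erythroid markers, beside the WT_CD ranges above. The part of these markers in either comparison's differences of Srebf2, Scap, Insig1 and Stard4 was not tested.

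Relations between the genes were computed on each sample's deviation from the mean of its group and array set, over 46 samples and 27 relations, with 100000 permutations within group and set. Of the 27, 11 passed after adjustment over all 27. Srebf1 and Insig1 deviated together (Pearson r = 0.682, permutation p = 6e-05, adjusted p = 0.00072; Spearman rho = 0.586, permutation p = 0.00027), and r was 0.686 without the 2 samples farthest in Srebf1. Within set A r was 0.624 (adjusted p = 0.0647) and within set B 0.706 (adjusted p = 0.0136). Srebf1 and Insig2 deviated in opposite directions (r = -0.495, permutation p = 0.00073, adjusted p = 0.00282; rho = -0.527, permutation p = 0.00037), with -0.499 without the 2 farthest samples, -0.802 in set A and -0.411 in set B (adjusted p = 0.0188 and 0.069).

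Insig1 and Stard4 deviated together (r = 0.67, permutation p = 0.0004, adjusted p = 0.00216; rho = 0.577, permutation p = 0.00035), with 0.527 without the 2 farthest samples, 0.597 in set A and 0.704 in set B (adjusted p = 0.135 and 0.0141). Srebf1 and Stard4 had r = 0.478 (permutation p = 0.018, adjusted p = 0.0443) but rho = 0.321 (permutation p = 0.0745, adjusted p = 0.168), and 0.48 without the 2 farthest samples. Their relation did not pass within set A (0.442, adjusted p = 0.439) or set B (0.496, adjusted p = 0.0885). Srebf1 with Srebf2 (r = 0.038) and Srebf2 with Scap (r = 0.076) were among the 11 member pairs that did not pass, with permutation p of 0.851 and 0.686.

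**Figure D4:**
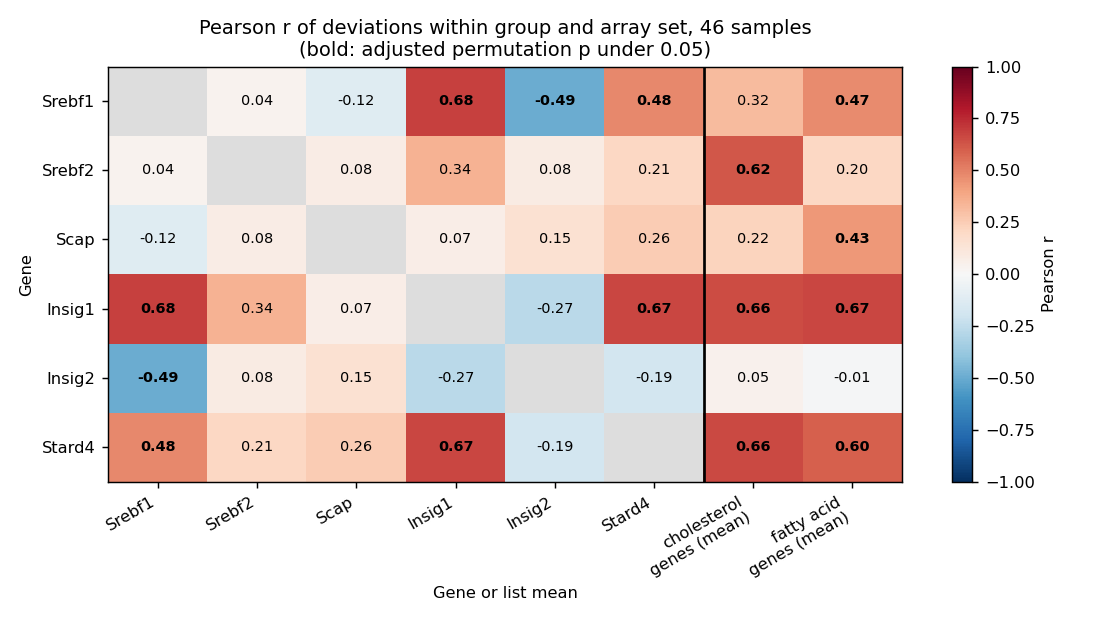
Pearson r, printed in each cell and coloured from -1 (blue) to 1 (red), between deviations of the genes (rows) from group and array set means and those of the other genes or of the mean of the cholesterol and fatty acid lists (columns), over 46 samples; bold values have an adjusted permutation p under 0.05. Srebf2 is related to the cholesterol list (0.62) and not past the threshold to the fatty acid list (0.20), and Srebf1 to the fatty acid list (0.47) and not past the threshold to the cholesterol list (0.32). Whether the r of a gene differs between the lists was not tested, and Insig1 and Stard4 pass with both.

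Against the mean of the 17 cholesterol genes, Srebf2 had r = 0.624 (permutation p = 0.00141, adjusted p = 0.00476; rho = 0.591, permutation p = 0.00116), and 0.665 without the 2 farthest samples. Within set A it was 0.372 (adjusted p = 0.361) and within set B 0.757 (adjusted p = 0.0136), so the relation passed in set B only. Insig1 had r = 0.655 (permutation p = 0.00062, adjusted p = 0.00279; rho = 0.58, permutation p = 0.00145), 0.591 without the 2 farthest samples, and 0.61 and 0.674 in the sets (adjusted p = 0.135 and 0.0286). Stard4 had r = 0.658 (permutation p = 8e-05, adjusted p = 0.00072; rho = 0.672, permutation p = 5e-05), 0.603 without the 2 farthest samples, and passed in each set (0.756 and 0.612, adjusted p = 0.0324 and 0.0396). Scap (r = 0.222), Insig2 (r = 0.046) and Srebf1 (r = 0.316) did not pass, with permutation p of 0.211, 0.742 and 0.116.

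Against the mean of the 15 fatty acid genes, Insig1 had r = 0.67 (permutation p = 3e-05, adjusted p = 0.00072; rho = 0.636, permutation p = 7e-05), 0.579 without the 2 farthest samples, and passed in each set (0.751 and 0.642, adjusted p = 0.0324 and 0.0179). Stard4 had r = 0.6 (permutation p = 0.00038, adjusted p = 0.00216; rho = 0.571, permutation p = 0.00021), 0.461 without the 2 farthest samples, and passed in each set (0.595 and 0.602, adjusted p = 0.0324 and 0.0396). Srebf1 had r = 0.474 (permutation p = 0.00482, adjusted p = 0.0145; rho = 0.406, permutation p = 0.0159) and 0.489 without the 2 farthest samples. It passed in neither set alone (0.514 and 0.457, adjusted p = 0.235 and 0.069). Scap had r = 0.435 (permutation p = 0.0164, adjusted p = 0.0443; rho = 0.401, permutation p = 0.0205, adjusted p = 0.0504, short of the threshold) and 0.342 without the 2 farthest samples. Its relation passed in neither set (0.709 and 0.3, adjusted p = 0.0647 and 0.278) and was -0.137 when only group means were removed. Srebf2 had r = 0.204 and Insig2 r = -0.014, with permutation p of 0.371 and 0.928. Samples share arrays across all these relations, so a value common to an array enters each of them.

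The genes whose levels were most alike over all 46 samples are given as a description. Those most like Srebf2 were Mmab, a vitamin B12 enzyme that shares a promoter region with Mvk (r = 0.877), Mvk, the mevalonate kinase (0.875), and Lrrc8b (0.766). Those most like Insig1 were the cholesterol genes Lss (0.847) and Mvd (0.84) and the fatty acid synthase Fasn (0.81). For Stard4 they were Hsd17b7 (0.87), Fdft1 (0.85) and Lss (0.818), all of cholesterol synthesis. Srebf1 was most like Mid1ip1, a partner of acetyl-CoA carboxylase (0.759), Dnaja1 (0.754) and Fam20c (0.752). Scap was most like Aldoc (0.817), Ebpl (0.813) and Slc44a3 (0.812). These values hold the group and array set differences: on deviations within group and set, r was 0.222 for Srebf2 with Lrrc8b and 0.254 for Scap with Slc44a3, but 0.764 for Insig1 with Mvd and 0.716 for Stard4 with Fdft1.

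Insig2 stood with other genes. Those most like it were Clpx, a mitochondrial protease subunit (0.799), Clock, a core transcription factor of the circadian clock (0.79), and Asap2 (0.763). On deviations within group and set r with Clock was 0.84. After these values were seen, each of the 6 genes was set against 13 clock genes, with no test. Insig2 had r of 0.756 with Arntl, the partner of Clock, and negative r with 9 others, from -0.467 with Hlf to -0.808 with Tef and -0.866 with Per3. With Nr1d1 and Cry1, which the pair also drives, r was 0.135 and 0.017. Spearman values were 0.621 for Arntl and -0.763 for Per3. Across the same genes, r of Srebf2 lay between -0.432 (Nr1d2) and 0.319 (Arntl), and r of Stard4 between -0.304 (Clock) and 0.231 (Per3). Srebf1 lay between -0.441 (Clock) and 0.48 (Hlf), with signs opposite to those of Insig2 for Clock, Arntl, Per3 and Tef. Insig1 lay between -0.345 (Clock) and 0.394 (Cry1), and Scap reached -0.579 with Per1.

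**Figure D5:**
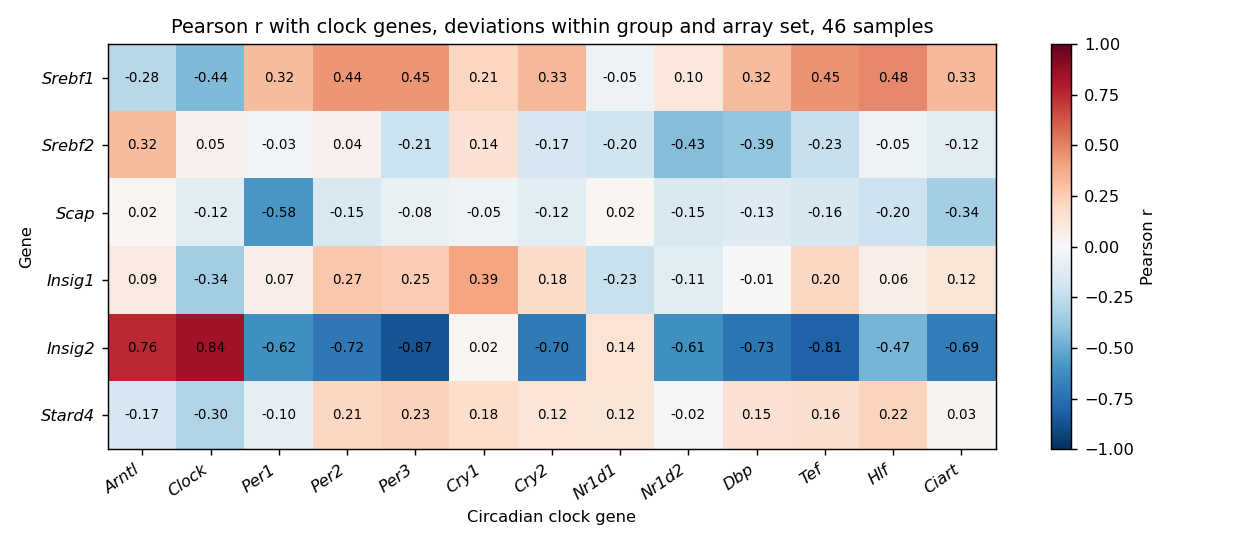
Pearson r, printed in each cell and coloured from -1 (blue) to 1 (red), between deviations from group and array set means of the 6 genes (rows) and of 13 circadian clock genes (columns), over 46 samples, as a description with no test. The Insig2 row holds the values farthest from 0, from -0.87 with Per3 to 0.84 with Clock.

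Of the 13 clock genes tested between the wild-type groups, 1, Tef, was lower in WT_LPD than in WT_CD (-0.77, limma adjusted p = 0.0468). Beside it, 0.812% of all genes passed as lower. At an unadjusted p under 0.05 were 8 of the 13, against 2153 of all 13542 genes. The groups overlapped in Arntl, which ran from 5.41 through 6.47 to 7.51 in WT_CD and from 5.26 through 7.84 to 8.21 in WT_LPD. In set A, where Insig2 differed between the wild-type groups, mean Arntl was 5.73 in WT_CD and 7.97 in WT_LPD, and mean Dbp was 9.53 and 7.60. In set B, mean Arntl was 7.04 and 7.13, and mean Dbp 8.59 and 8.57. In set A of ATF7+/-_CD and ATF7+/-_LPD, mean Arntl was 7 and 6.20, and mean Insig2 11.29 and 10.65. In set A of ATF7+/+_CD and ATF7+/+_LPD, mean Arntl was 8.17 and 7.58, and mean Insig2 11.25 and 11.33. The part of the clock genes in the Insig2 difference was not tested, and the labels used here give no hour of collection.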

How the data were processed

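Liver RNA of 48 F1 mice was labelled with biotin and hybridised to Affymetrix gene arrays. The authors deposited log2 expression per probe set, which the submitters' processing notes credit to RMA and the Affymetrix software Expression Console; versions and whether all arrays were normalized together are not given in the sources used here. Values were used as deposited. Arrays have no read depth, and their number limits the precision.

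Probe sets with 1 gene symbol and a mean at or above the 40th percentile of 35556 probe sets (log2 of 5.46) were kept, 1 per gene with the highest mean. Pairs of arrays of a group whose difference was less than 1.5 times as wide on variable as on stable genes were averaged (other pairs: 2.24 to 6.35). Array sets were read from the main axis of variation over 5591 probe sets that the gene table does not name.

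All 6 groups were fitted with limma 3.58.1 in R 4.3.3, two-sided, with Benjamini-Hochberg adjustment over 13542 genes, 0.05 as the threshold and 12 contrasts. The script was tested on simulated data. The 6 genes, lists, motifs and tests were chosen with earlier results of these data known. Named genes are the 6 genes, of each list up to 4 genes with the smallest p among those past the threshold in the wild-type diet comparison (or the 1 with the smallest p), and the 3 genes most alike to each of the 6; the clock genes, and the markers named, were picked after their values were seen. Promoter sequences are from RefSeq, which had windows for 5 of the 6 genes; motifs were counted in the 250 bases upstream.

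Replicate numbers recur in all groups. Same-numbered samples of the 2 diets correlated in their deviations from group means in ATF7+/- (r = 0.18 to 0.74) and ATF7+/+ (0.30 to 0.67), where each pair lies in 1 array set, but not in wild-type (-0.47 to 0.50). With array set means removed, r fell to -0.04 to 0.38 in ATF7+/- and -0.16 to 0.35 in ATF7+/+. Blocks by replicate number were run as alternatives. The others were the filter, the normalization, the mean of a gene's probe sets, array weights, the variance prior, fits to the compared groups alone, the array set as a block or alone, 2 Y-linked genes as a covariate, no averaging of the near-identical pairs, and omission of each sample. Python 3.11.15 with matplotlib 3.10.9 drew the figures.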

Additional observations from a re-analysis of the deposited data

Results flagged for a closer look

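The first 4 values are given because 1 sample lay far from the rest of its group by Dixon's test at 95%, and 2 because a diet difference differed between genotype labels. Srebf1 in replicate 5 of ATF7+/-_CD was 9.07, with the next sample of the group at 9.84. Insig1 in the same sample was 11.53, with the next at 12.08, while its Srebf2 and Scap levels, 8.74 and 10.33, lay within the others. In that sample Insig2, at 11.39, was the highest of the group and Stard4, at 8.65, the lowest. Insig2 in replicate 4 of WT_LPD was 10.1, with the next at 10.93, and Insig2 in replicate 5 of ATF7+/+_CD was 10.23, with the next at 10.89. Chance flags about 1 in 20 groups, and 36 were tested. The interaction between wild-type and ATF7+/- was 0.73 for Srebf2 and 0.61 for Scap.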

How the results depend on the processing

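Of 1662 values of the 6 genes over 8 comparisons and their alternatives, 1563 kept their sign and their side of the threshold, 33 lost and 13 gained a call and 53 turned in sign. Causes of the changes were not tested. Fits to an array set alone, to the compared groups alone or without a sample also use fewer samples. Array number and the within-group spread of Srebf1, Insig1 and Insig2 limit what could be resolved. The number of genes past the threshold in the wild-type diet comparison was 487, from 139 (only the groups compared) to 2118 (array set A alone), and 1254 when the array set was a block. It was 86 for the wild-type minus ATF7+/- interaction (61 to 406), 224 for ATF7+/- minus wild-type with control-diet sires (69 to 923), 3 for the wild-type minus ATF7+/+ interaction (0 to 417), 47 for ATF7+/+ minus wild-type with control-diet sires (1 to 2645), 1 for the ATF7+/+ diet comparison (0 to 89) and 0 for the ATF7+/- one (0 to 1).

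In the wild-type diet comparison, 1 of the 6 genes passed with only the groups compared in the fit, where Scap (0.45), Insig1 (0.84) and Stard4 (0.63) lost their calls. Array weights gave 0.70 for Insig1. Array set A alone gave 0.55 for Srebf1, 0.26 for Scap and 0.74 for Insig2, and array set B alone 0.58 for Insig1. In the ATF7+/- diet comparison the sign turned for Srebf1 (-0.05) and Insig2 (0.21) in array set B, for Insig2 with array weights (0.065), and for Stard4 with median centring (0.014) and in array set A (0.24). In the ATF7+/+ diet comparison it turned with array weights for Srebf1 (-0.013), Srebf2 (-0.018) and Insig1 (-0.289), and in array set B for Srebf1 (-0.079), Srebf2 (-0.087), Insig1 (-0.425) and Stard4 (-0.009).

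In the wild-type minus ATF7+/- interaction, Scap was 0.64 with median centring and 0.38 in array set A, both short of the threshold. Insig1 passed with the array set as a block (1.09), in array set A (1.24) and with that block and the Y-linked covariate (1.08). In these fits 299, 280 and 406 of all genes passed. Insig2 passed in array set A (1.38), where Srebf1 turned in sign (0.03), and Stard4 with block and covariate together (0.65). In the wild-type minus ATF7+/+ interaction, Srebf2 passed with the array set as a block (0.47) and with block and covariate (0.47). There 51 and 61 of all genes passed. Srebf1 turned in sign in array set A (0.017) in this interaction. The replicate block moved no call of the 6 genes and turned no sign. With the replicate block within labels, Stard4 in the wild-type minus ATF7+/- interaction was 0.64 and passed, and no other call moved.

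For ATF7+/- minus wild-type with control-diet sires, Srebf1 turned in sign with quantile normalization (-0.018), array weights (-0.18), array set B (-0.33), the Y-linked covariate (-0.003), block and covariate (-0.006) and all 48 arrays as samples (-0.071). Calls were lost by Srebf2 with median centring (0.44), by Srebf2, Insig1 and Stard4 with only the groups compared (0.41, 1.01 and 0.60), and by Insig1 and Stard4 with array weights (0.77 and 0.48) and in array set B (0.62 and 0.40). Insig2 passed in array set A (0.79), where 898 of all genes passed. With low-protein sires, signs turned in array set A for Scap (0.007), Insig1 (0.33) and Stard4 (0.38) and in array set B for Insig2 (0.004). For ATF7+/- minus ATF7+/+, array set A alone called 4 of the 6 genes with control-diet and 2 with low-protein sires, against 0 from all samples. Of all genes it called 1262 and 1218. Of ATF7+/+ minus wild-type with control-diet sires, Insig1 (0.65) and Insig2 (0.75) passed in array set A, where 2645 of all genes passed. Of 36 alternative values of the relations, 22 kept their call, 13 lost it, and Scap with the fatty acid list turned to -0.137.

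With 1 sample left out, the wild-type diet difference ran from -0.265 to 0.008 for Srebf1, 0.45 to 0.56 for Srebf2, 0.40 to 0.49 for Scap, 0.695 to 0.997 for Insig1, 0.34 to 0.56 for Insig2 and 0.51 to 0.71 for Stard4. The interaction between wild-type and ATF7+/- ran from 0.56 to 0.66 for Scap and from 0.93 to 1.24 for Insig1. The ATF7+/- diet difference of Stard4 ran from -0.063 to 0.038, and the ATF7+/+ ones from -0.047 to 0.075 for Srebf2, -0.051 to 0.137 for Insig1 and -0.036 to 0.216 for Insig2. For ATF7+/- minus wild-type with control-diet sires the ranges were -0.14 to 0.14 for Srebf1 and 0.47 to 0.68 for Stard4, and with low-protein sires -0.176 to 0.022 for Insig1 and -0.093 to 0.008 for Stard4.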
